A study of Mus musculus with 9 samples.

Results

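The 6 genes described here, Igf1, Spp1, Npnt, Arg1, Htra3 and Chst2, encode secreted factors, matrix proteins and enzymes, and are grouped here as repair-type genes. They were found by their symbols among the 31053 genes of the count tables. They were selected on measured values of these data, as genes that lead microglial states seen after microglia are depleted, so that their differences from untreated mice are given as a description and were not tested. Brain cells positive for CD11b, a surface protein of myeloid cells, were sorted from C57BL/6 mice (substrain C57BL/6J) aged 5 months and profiled with droplet-based single-cell RNA-seq in 9 libraries. Ctrl mice were naïve and each of the 3 libraries held 1 brain. D0 mice had eaten PLX5622, an inhibitor of the receptor CSF1R, at 1200 mg/kg of diet for 14 days, and D2 mice had the same treatment followed by 2 days on control diet. Each of the 3 D0 and 3 D2 libraries pooled 2 brains, so that the library was the replicate and single animals of a pool could not be separated. The sort took living CD11b+ cells of the brain without the cerebellum, and therefore held other myeloid cells as well as microglia.

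Microglia are the resident macrophages of the brain and most need signals through CSF1R to survive. An inhibitor of this receptor therefore removes most of them, and the survivors restore the population once it is withdrawn. Macrophages at sites of repair secrete growth factors, matrix ligands and proteases. Igf1 is insulin-like growth factor 1, a secreted ligand of the receptor Igf1r, and is held in the extracellular space by the Igfbp binding proteins. Spp1, osteopontin, is a secreted phosphoprotein that binds integrins and Cd44, and Npnt, nephronectin, is a matrix protein of basement membranes that also binds integrins. Arg1, arginase, turns arginine into ornithine, the precursor of polyamines and proline. Htra3 is a secreted serine protease. Chst2 is a sulfotransferase of the Golgi apparatus that adds sulfate to the sugar chains of glycoproteins, and so acts on secreted products without being one.

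Microglia were 22737 of the 28655 cells kept in 8 libraries, in clusters made without the 6 genes and named from their marker genes. All 12 microglial markers were detected in every library. Their summed level was 39209 to 45853 CPM (UMIs of the genes scaled to a fixed total of UMIs per library) in Ctrl, 30369.8 to 32972 in D0 and 25863 and 26506 in D2-1 and D2-2. The 8 libraries held 1652 to 3816 microglia each, with a median of 5214 to 10512 UMIs per cell. Pairs of libraries shared 0 to 7 barcodes. D2-3 stood apart: 42.6% of its kept cells were microglia, against 68.3% to 88.6% in the others, 84.4% of those microglia were mitotic, and 37.3% of its barcodes exceeded the upper limit on UMIs. It was left out of the fits, as in the study. Its levels and shares of the genes are given beside the others. The count files of Ctrl-1, of the D0 libraries, of D2-1 and of D2-2 name Cell Ranger 3.0.2, and those of Ctrl-2, Ctrl-3 and D2-3 name 3.1.0. Most microglia of Ctrl-1 fell in another sub-cluster (68.1% in sub-cluster 3) than those of Ctrl-2 and Ctrl-3 (72.9% and 68.2% in sub-cluster 1), so that the Ctrl libraries also split by this version. Fits with the libraries of version 3.0.2 alone, or with a term for the version, therefore compare D0 and D2 with Ctrl-1 only.

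The genes lie on chromosomes 3, 5, 9 and 10 of the mouse genome GRCm38 and are annotated as protein coding: Igf1 at chr10:87858265-87937042 on the plus strand, Spp1 at chr5:104435118-104441050 on the plus strand, Npnt at chr3:132881745-132950291, Arg1 at chr10:24915221-24927484, Htra3 at chr5:35652023-35679782 and Chst2 at chr9:95399292-95406722, these 4 on the minus strand. RefSeq start sites of 5 of the 6 genes had a window of the 250 bases upstream (7 windows in all, build GRCm38.p6). The core GAGGAA, bound by PU.1, the factor that sets macrophage identity, was searched on both strands and occurred in 1 window each of Spp1, Htra3 and Igf1. It occurred in 23.3% of the 32851 windows of all genes. The windows of Spp1 and Htra3 are shown because they hold this core outside annotated exons, from base 250 to base 51 upstream of the start and in the direction of the gene, with the core in capitals. The Spp1 bases are chr5:104434861-104435060 and the Htra3 bases chr5:35679831-35680030.
Spp1: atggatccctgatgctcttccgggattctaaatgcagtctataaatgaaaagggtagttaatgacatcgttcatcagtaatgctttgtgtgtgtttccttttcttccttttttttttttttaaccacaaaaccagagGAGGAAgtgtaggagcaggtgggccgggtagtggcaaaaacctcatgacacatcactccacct
Htra3: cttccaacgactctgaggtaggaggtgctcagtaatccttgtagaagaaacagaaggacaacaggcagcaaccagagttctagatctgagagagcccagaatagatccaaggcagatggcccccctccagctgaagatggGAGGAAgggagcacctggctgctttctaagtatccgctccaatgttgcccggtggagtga
The core began 113 bases upstream of the start of Spp1, 110 bases upstream of that of Htra3 and 60 bases upstream of that of Igf1, whose window lies within an exon of a longer transcript and is not shown. Of 10 other motifs searched on both strands, the windows of Npnt, Chst2 and Igf1 held the NF-kappaB motif (17.6% of all windows). The window of Igf1 held TGANTCA of AP-1 (6.75%), and windows of Spp1 held TATAAA of the TATA box (12.4%) and TTGCNNAA of C/EBP (9.56%). No window of the 5 genes held the STAT6 motif (5.85%), CACGTG of the E-box (6.02%), GCGGGGGCG of EGR (2.57%), the MEF2 motif (3.20%), the CLEAR element, which contains the E-box (0.240%) or the CArG box (1.47%). A match in these letters describes the sequence and was not tested for binding.

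Levels are CPM of a gene in the UMIs summed over the microglia of a library. In bulk sums of this kind, fewer cells that carry a transcript and less transcript per cell cannot be told apart, and shares of cells are therefore given as well. Igf1 measured 0.700, 1.89 and 1.75 CPM in Ctrl-1, Ctrl-2 and Ctrl-3. It measured 10.6, 7.81 and 4.52 CPM in D0-1, D0-2 and D0-3. It measured 9.74 CPM in D2-1, 46.5 in D2-2 and 1.65 in D2-3. All 3 D0 libraries and D2-1 and D2-2 lay above every Ctrl library, D2-2 lay far above D2-1, and D2-3 lay within the Ctrl range. Group means were 1.45 ± 0.651 CPM in Ctrl (SD, n = 3), 7.64 ± 3.04 in D0 (SD, n = 3) and 28.1 ± 26.0 in D2 (SD, n = 2). The log2 fold change against Ctrl was 2.62 ± 0.62 (SE) in D0 and 4.41 ± 0.67 in D2. Without D2-2 the D2 value was 2.85. With the 6 libraries of Cell Ranger 3.0.2 alone, in which Ctrl-1 is the only Ctrl library, the D0 value was 3.73. When all myeloid cells were summed, the D0 value was 0.88 and the D2 value 2.53. A mixed myeloid cluster outside the microglia measured 63.8 CPM of Igf1 in Ctrl, 12.4 in D0 and 25.9 in D2, and was thus highest in Ctrl.

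Spp1 measured 1.88, 2.94 and 6.14 CPM in the Ctrl libraries. It measured 21.5, 29.2 and 21.5 CPM in D0-1, D0-2 and D0-3, and 35.7 and 32.4 CPM in D2-1 and D2-2. In D2-3 it measured 293 CPM. The 5 D0 and D2 libraries lay above the Ctrl range and D2-3 lay above all of them. The log2 fold change against Ctrl was 2.93 ± 0.37 in D0 and 3.32 ± 0.40 in D2. With D2-3 in the fit the D2 value was 5.45. With the 6 libraries of Cell Ranger 3.0.2 alone, and thus against Ctrl-1 only, it was 3.98 in D0 and 4.38 in D2. It was 2.34 in D0 without cells that held 2 or more UMIs of markers of other cell classes. A low-UMI cluster of microglia was led by Spp1, and without it the values were 2.94 in D0 and 3.18 in D2.

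Npnt, the gene of the 6 found in the largest share of Ctrl microglia, measured 51.4, 35 and 39.9 CPM in the Ctrl libraries. It measured 96.2, 73.7 and 62.4 CPM in the D0 libraries, and 81.1 and 102 CPM in D2-1 and D2-2. D2-3, with 35.7 CPM, lay within the Ctrl range. With D2-3 set aside, no Ctrl library overlapped a D0 or D2 library, while D0 and D2 overlapped each other. The log2 fold change against Ctrl was 1.09 ± 0.18 in D0 and 1.24 ± 0.20 in D2, the smallest of the 6 genes in both.

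Arg1 was nearly missing from Ctrl microglia, with 3, 0 and 1 UMIs in the 3 libraries, or 0.111, 0 and 0.0399 CPM. The D0 libraries held 20, 36 and 33 UMIs, or 1.04, 0.973 and 1.68 CPM. D2-1 held 29 UMIs (1.47 CPM), D2-2 held 200 (16.4 CPM) and D2-3 held 16 (2.03 CPM). Every D0 and D2 library lay above every Ctrl library, and D2-2 lay above all others. The fitted log2 fold change was 4.53 ± 1.2 in D0 and 7.29 ± 1.11 in D2, and rested on these few Ctrl UMIs. It was 4.69 in D2 without D2-2.

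Htra3 measured 4.49, 6.24 and 4.90 CPM in the Ctrl libraries. It measured 14.7, 20.1 and 24.0 CPM in the D0 libraries, 11.5 and 21.1 CPM in D2-1 and D2-2, and 29.6 CPM in D2-3. All 6 libraries of treated mice lay above Ctrl, and D2-3 was the highest. The log2 fold change against Ctrl was 2.13 ± 0.29 in D0 and 1.76 ± 0.31 in D2.

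Chst2 measured 4.83, 7.50 and 6.70 CPM in the Ctrl libraries. It measured 38.8, 49.0 and 17.7 CPM in the D0 libraries, 52.5 and 70.2 CPM in D2-1 and D2-2, and 7.22 CPM in D2-3. D2-1 and D2-2 lay above every D0 library, and D2-3 lay within the Ctrl range. The log2 fold change against Ctrl was 2.69 ± 0.37 in D0 and 3.39 ± 0.39 in D2.

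**Figure D1:**
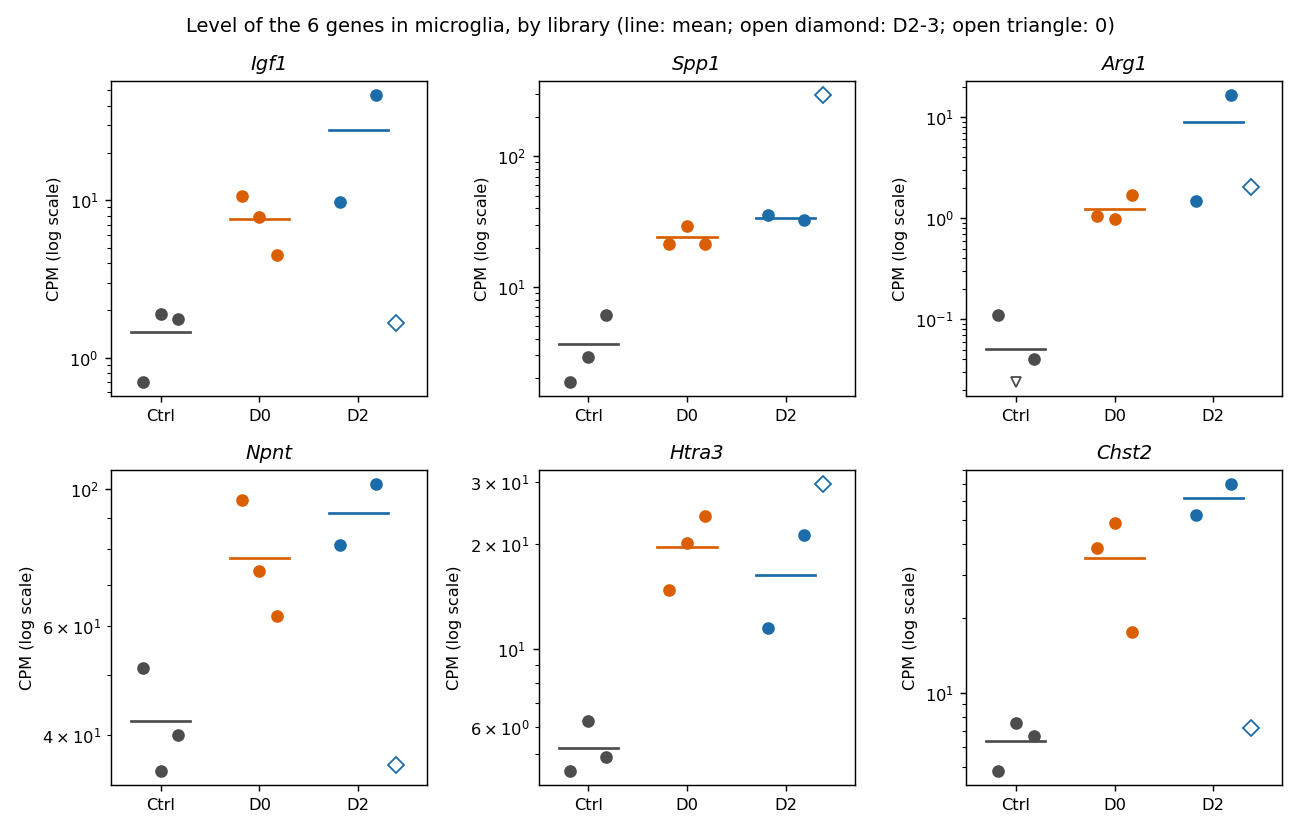
Level of each gene in microglia (CPM, log scale) in each Ctrl, D0 and D2 library, with the group mean of the libraries in the fits as a line, D2-3 as an open diamond and a value of 0 as an open triangle at the lower edge. The D0 libraries and D2-1 and D2-2 lie above the Ctrl libraries, which the way the genes were chosen favoured, and nothing is read from this. D2-3 is highest for Spp1 (293 CPM) and Htra3 (29.6 CPM) and within the Ctrl range for Igf1, Npnt and Chst2.

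Across all 12415 genes tested with edgeR, 12.5% were called higher and 7.55% lower in D0 than in Ctrl at an adjusted p under 0.05, and 10.6% and 7.45% in D2. For all 6 genes no Ctrl library overlapped a D0 library or D2-1 or D2-2, which the way they were chosen favoured, and nothing is read from that count. The share of all genes without such overlap is not given. Both comparisons share the Ctrl libraries. The comparison of D2 with D0 was not itself used to choose the genes and was tested. They were chosen, however, as genes that lead states seen after depletion, and the share of such states can differ between D0 and D2. Independence of this test from that choice is therefore not established. With edgeR's quasi-likelihood test, 0% of genes were called higher and 0% lower at an adjusted p under 0.05, while 804 genes (6.48%) had an unadjusted p under 0.05 and DESeq2 called 26 genes. Igf1 had a log2 fold change of 1.79 in this edgeR fit (95% interval 0.64 to 2.95, unadjusted p = 0.0131, adjusted p = 0.728). Arg1 had one of 2.77 (1.25 to 4.28, unadjusted p = 0.00544, adjusted p = 0.728, edgeR). Without D2-2 these were 0.23 and 0.15, and without a filter on low counts both passed the threshold. The other 4 genes gave 0.70 for Chst2 (-0.02 to 1.42), 0.39 for Spp1 (-0.33 to 1.12), 0.15 for Npnt (-0.24 to 0.54) and -0.37 for Htra3 (-0.98 to 0.23), with adjusted p of 0.728 to 0.832. With 2 D2 libraries, these intervals leave room for differences of either direction in Spp1, Npnt, Htra3 and Chst2. The intervals of all 6 genes assume a normal spread around the estimate and are too narrow for so few libraries.

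The share of microglia with at least 1 UMI differed widely among the genes. Npnt was found in 22.9% to 25.6% of microglia in the Ctrl libraries, in 34.2% to 41.3% in D0, and in 32.0% and 37.2% in D2-1 and D2-2. Chst2 was found in 2.74% to 4.82% in the Ctrl libraries, in 15.9%, 24.7% and 10.8% in D0 and in 19.1% and 30% in D2. Htra3 was found in 2.99% to 4.82% in Ctrl, in 6.22%, 12.1% and 14.6% in D0 and in 5.96% and 8.78% in D2. Neither for these 3 genes nor for the other 3 below did a Ctrl library overlap a D0 or D2 library in the fits, which the way they were chosen favoured. Nothing is read from this, as the share of all genes without such overlap is not given. In D2-3 the shares were 24.5% for Npnt, 5.84% for Chst2 and 19.1% for Htra3.

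The other 3 genes were found in few cells. Spp1 was in 0.630% to 0.976% of Ctrl microglia, in 2.27%, 7.55% and 6.65% in D0, and in 4.14% and 6.60% in D2-1 and D2-2. In D2-3 it was in 64.0% of 770 microglia (exact 95% binomial interval 60.5% to 67.4%, counting error only). Igf1 was in 0.438% to 1.10% in Ctrl, in 2.61%, 3.07% and 2.77% in D0, in 3.18% and 9.99% in D2-1 and D2-2 and in 1.04% in D2-3. Arg1 was in at most 0.0822% of Ctrl microglia, in 0.249%, 0.498% and 0.665% in D0, and in 0.287%, 3.03% and 1.17% in D2-1, D2-2 and D2-3.

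Libraries differed in depth, and the shares were therefore repeated with each cell thinned to 2000 UMIs, which left out 303, 31 and 70 shallower microglia in the Ctrl libraries, 294, 81 and 34 in D0, and 338 and 187 in D2-1 and D2-2. Mean shares in Ctrl, D0 and D2 were then 7.72%, 12.9% and 14.4% for Npnt, 1.09%, 6.08% and 11.0% for Chst2, and 0.943%, 2.97% and 2.55% for Htra3. They were 0.348%, 1.83% and 2.10% for Spp1, 0.246%, 0.871% and 3.25% for Igf1, and 0.00996%, 0.122% and 0.736% for Arg1. The order of Ctrl below D0 and D2 was kept for every gene, which the way they were chosen favoured. In D2-3 the thinned shares were 6.77% for Npnt, 1.59% for Chst2, 6.92% for Htra3, 29.5% for Spp1, 0.288% for Igf1 and 0.576% for Arg1. The mean number of UMIs in a positive microglia over Ctrl, D0 and D2 libraries was 1.31, 2.22 and 2.68 for Igf1, and 3.59, 4.31 and 4.52 for Spp1. UMIs of Spp1 were unevenly spread, and 1 cell held up to 155 UMIs in D2-1 and 81 in D0-1, against 7 to 42 in the Ctrl libraries.

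Free RNA can give UMIs to cells that do not transcribe a gene, and cells of other classes were used as a comparison. At 2000 UMIs, 0 of 949 neutrophils held Igf1, Arg1 or Htra3, which allows a share of up to 0.316%, and 0.843% held Npnt and 0.316% Chst2. The Npnt share was 3.12% of 128 neutrophils in Ctrl and 0.641% of 624 in D0. Chst2 was in 41.8% of 122 thinned astroglial cells and Spp1 measured 293 CPM in mural cells. Thinned endothelial cells held Htra3 in 5.04% of 119 in Ctrl, 2.44% of 328 in D0 and 1.32% of 227 in D2. They held Chst2 in 1.68%, 4.57% and 3.08%. Both Ctrl shares lay above the mean thinned shares of Ctrl microglia (0.943% and 1.09%). The D0 and D2 means of microglia lay above the endothelial shares. The source of these endothelial UMIs was not tested. Neutrophils had a median of 3339 UMIs before thinning and microglia 6987. The thinned Ctrl shares of Igf1 (0.179% to 0.281%) and Arg1 (0 to 0.0299%) in microglia lay under the share that 0 of 949 allows, and are not read as expression. Over all microglia, Arg1 in D0 (0.0342%, 0.107% and 0.226%) and D2-1 (0.107%) also lay under this limit. Of the libraries in the fits, only D2-2 (1.37%) exceeded it. This limit pools neutrophils of all groups. For Igf1 and Arg1, those of a single group allow up to 2.34% of 128 in Ctrl, 0.481% of 624 in D0 and 1.52% of 197 in D2. Arg1 in D2-2 and Igf1 in D2-1 (1.18%) lay under this D2 limit, and Igf1 in D2-2 (5.32%) above it. A share over all microglia does not decide on expression in a small part of them. In sub-cluster 12, described below, the mean thinned share of Arg1 was 2.40% in D0. Single microglia of D0-1, D0-2, D0-3 and D2-1 held up to 8, 7, 10 and 15 Arg1 UMIs at full depth. Spp1 differed from the rest in neutrophils, with 4.95% of them positive. It was in 0.445% of the 674 endothelial cells, whose median was 3644 UMIs before thinning. Both comparison shares moved with condition: neutrophils had 1.56% in Ctrl, 5.13% in D0 and 6.60% in D2, and endothelial cells 0 of 119 in Ctrl, which allows up to 2.52%, then 0.305% of 328 in D0 and 0.881% of 227 in D2. The shares of Spp1 in microglia (0.299% to 0.374% in Ctrl, 1.23% to 2.4% in D0 and 1.68% and 2.53% in D2) lay under those of neutrophils in every group, and those in D0 and D2 lay above those of endothelial cells. The part of free RNA in the Spp1 shares was not tested. In D2-3, where 64.0% of microglia held Spp1, it was in 10.3% of 252 neutrophils, 7.94% of 63 endothelial cells and 13% of 617 cells of the mixed myeloid cluster.

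Markers of other cells within the microglia sums moved with condition in part. The 11 neutrophil markers summed to 7.04 to 37.7 CPM in the Ctrl libraries, 64.3 to 226 in D0 and 55.5 and 215 in D2-1 and D2-2, and 0 to 4 of them were at 0. The 11 monocyte markers ranged in sum from 60.2 to 174 CPM over the Ctrl libraries and from 109 to 355 over D0, with 161 in D2-1 and 146 in D2-2, and 0 or 1 were at 0. The 10 markers of border-associated macrophages went the other way, ranging from 217 to 273 CPM over the Ctrl libraries and from 117 to 151 over D0, with 124 in D2-1 and 122 in D2-2, and 0 to 2 were at 0. In every library 9 of the 10 markers of border-associated macrophages and 10 of the 11 monocyte markers lay under 20 CPM. These 2 sums thus do not describe their lists as a whole. Of the 11 neutrophil markers, 11 lay under 20 CPM in the Ctrl libraries, 9 in D0, 10 in D2-1 and 9 in D2-2. The part of cells of other types in the levels of the 6 genes was not tested.

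The UMIs of the 6 genes were spread differently over the microglia. The genes were chosen as leaders of microglial states, which favoured their lying together in a state, and the values below are a description. Among 13 sub-clusters of microglia, formed without the 6 genes, 1 small sub-cluster held most of Arg1 and much of Igf1. It was sub-cluster 12, led by S100a4, Vim, S100a6, Lgals1, Cd36 and Ass1, with 3.68% of the cells and 5.77% of all UMIs of the microglia in the 5 D0 and D2 libraries in the fits, and it held 79.9% of the Arg1 UMIs, 47.6% of those of Igf1, 27.9% of those of Htra3, 10.2% of those of Npnt, 5.14% of those of Spp1 and 3.69% of those of Chst2. The Chst2 share lay under the share of all UMIs in sub-cluster 12, whose cells had a median of 12858 UMIs. In this sub-cluster Igf1 averaged 58.7 ± 31.6 CPM in D0 (SD, n = 3) and 168 ± 38.7 in D2 (SD, n = 2), and Arg1 21.1 ± 8.41 and 60.5 ± 55.2. It made up 0.0305% to 0.0548% of microglia in Ctrl, 2.27%, 4.64% and 3.1% in D0, 1.97% in D2-1, 8.11% in D2-2 and 0.390% in D2-3. D2-2, highest for Igf1 and Arg1, thus also had the largest share of sub-cluster 12.

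Spp1 lay elsewhere. Sub-cluster 6, led by Lgals3, Ccl12, Nes, Lpl and Ccl7, held 10.7% of the cells, 12.5% of all UMIs and 32.5% of the Spp1 UMIs, with 16.8% of those of Igf1, 6.60% of those of Arg1 and 7.59% of those of Chst2. Spp1 averaged 139 ± 91.5 CPM there in D0 (SD, n = 3) and 215 ± 257 in D2 (SD, n = 2). Of the 1460 cells of sub-cluster 6 in these libraries, 961 came from D2-1 and 44 from D2-2. The higher of the 2 D2 values was that of D2-2, so that the D2 mean does not describe D2-1, the source of most of these cells. The share of sub-cluster 6 was 30.6% of microglia in D2-1 and 2.66% in D2-2, although the Spp1 level of these libraries was alike. Sub-cluster 8, led by Ttr, Ccl5 and Lgals3, held 5.47% of the cells, 2.06% of all UMIs and 7.46% of the Spp1 UMIs. Its cells were shallow, with a median of 2097 UMIs. Sub-cluster 10, led by Hist1h1b, Top2a and Mki67, genes of dividing cells, held 6.02% of the cells, 9.45% of all UMIs and 12.3% of the Spp1 UMIs. In D2-3, 73.5% of microglia were placed in sub-cluster 9, the other one led by genes of dividing cells.

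Chst2 and Npnt were spread. Sub-cluster 2, led by Lyz2 and Fam26f, sub-cluster 4, led by the early response genes Egr1 and Fosb, and sub-cluster 5, led by Dusp2, Tnfsf9 and Gadd45b, held 25.4%, 15.1% and 15.1% of the cells and 22.4%, 12.3% and 19.1% of all UMIs. They held 27.1%, 20.2% and 23.6% of the Chst2 UMIs, and 23.5%, 13.6% and 17.2% of those of Npnt. Sub-cluster 9, with 6.61% of the cells and 6.35% of all UMIs, held 13.5% of the Htra3 UMIs.

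**Figure D2:**
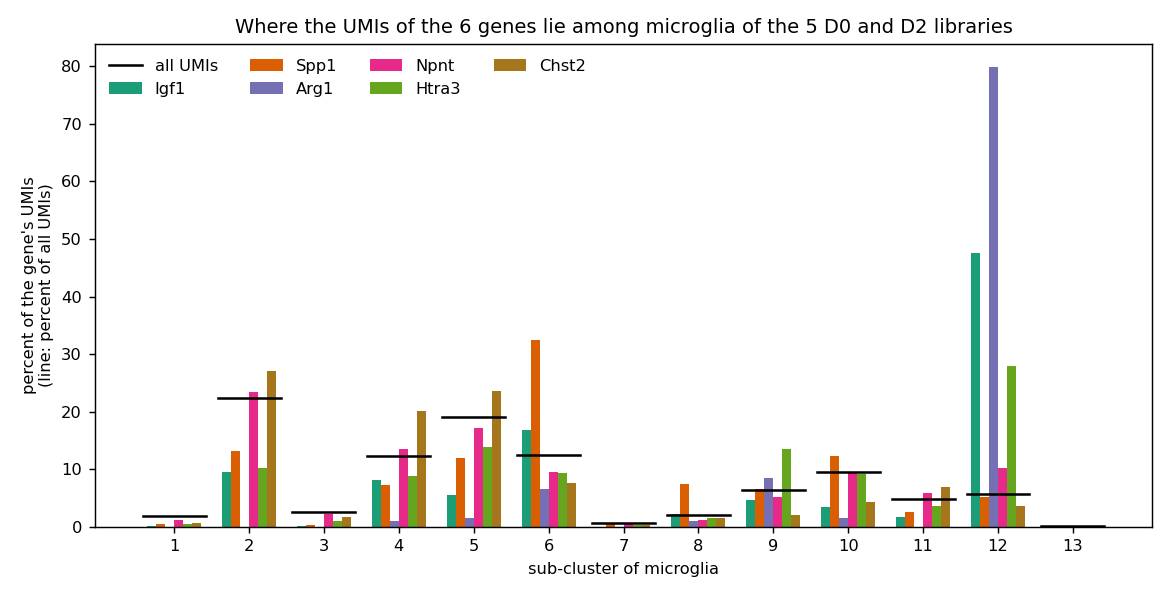
Percent of each gene's UMIs found in each of the 13 sub-clusters of microglia over the 5 D0 and D2 libraries in the fits (bars), with the percent of all UMIs of these cells in that sub-cluster as a line. Arg1 (79.9%), Igf1 (47.6%) and Htra3 (27.9%) exceed the 5.77% of all UMIs in sub-cluster 12. Spp1 exceeds the line in sub-cluster 6 (32.5% against 12.5%) and in the shallow sub-cluster 8 (7.46% against 2.06%). Npnt stays close to the lines in most sub-clusters, and Chst2 lies above them in sub-clusters 2, 4 and 5 and below them in 9, 10 and 12.

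How far the genes occurred in the same cells was counted within each library in microglia thinned to 2000 UMIs, against the count that independent detection would give. These counts are small and are given as a description. The choice of genes that lead microglial states favoured some of them meeting in the same cells. Igf1 and Arg1 were found together in 15 cells of the 5 D0 and D2 libraries against 1.17 expected, and exceeded the expected count in 4 of the 5. Of these cells, 10 were in D2-2, against 1.06 expected there. At full depth Igf1 and Arg1 were together in 72 cells against 6.4, in all 5 libraries. Igf1 and Htra3 were together in 16 cells against 5.24, and Arg1 and Htra3 in 5 against 0.988. Igf1 and Spp1 were together in 13 cells against 4.0, 10 of them in the D0 libraries against 1.48 and 3 in the D2 libraries against 2.52.

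Npnt and Htra3 were together in 69 cells against 45.4, with a ratio of 1.52 ± 0.135 (SD, n = 5) and above 1 in every library. Npnt and Chst2 met in 140 cells against 140.5, and Spp1 and Npnt in 31 against 32.7. Igf1 and Chst2 were together in 22 cells against 18.6, above the expected count in 3 of 5 libraries, and at full depth in 182 against 116, in all 5. Htra3 and Chst2 were together in 14 cells against 26.5, below the expected count in all 5 libraries, and Arg1 and Chst2 in 1 against 3.35. Spp1 and Arg1 were not found together in any thinned cell, with 0.738 expected, which is too few to read. At full depth, where cells with more UMIs show more of every gene, these were 12 cells against 6.09, and Htra3 and Chst2 were in 208 cells against 254. Spp1 and Npnt, near the expected count in thinned cells, were together in 393 cells against 273 at full depth, above it in all 5 libraries.

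Few cells carried several of the genes. Of thinned microglia, 10.1%, 9.16% and 11.2% held at least 1 of the 6 genes in Ctrl-2, Ctrl-3 and Ctrl-1, against 18.8% to 25.3% in D0 and 25.1% and 33.8% in D2. At least 2 of them were in 0.125% to 0.269% of Ctrl microglia, in 2.05%, 2.68% and 1.47% in D0, and in 3.14% and 5.19% in D2. Independent detection would give 1.83%, 2.48% and 1.29% in D0 and 2.39% and 5.04% in D2. In D2-3, 37.9% held at least 1 and 7.20% at least 2. No thinned cell held 5 or 6.

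**Figure D3:**
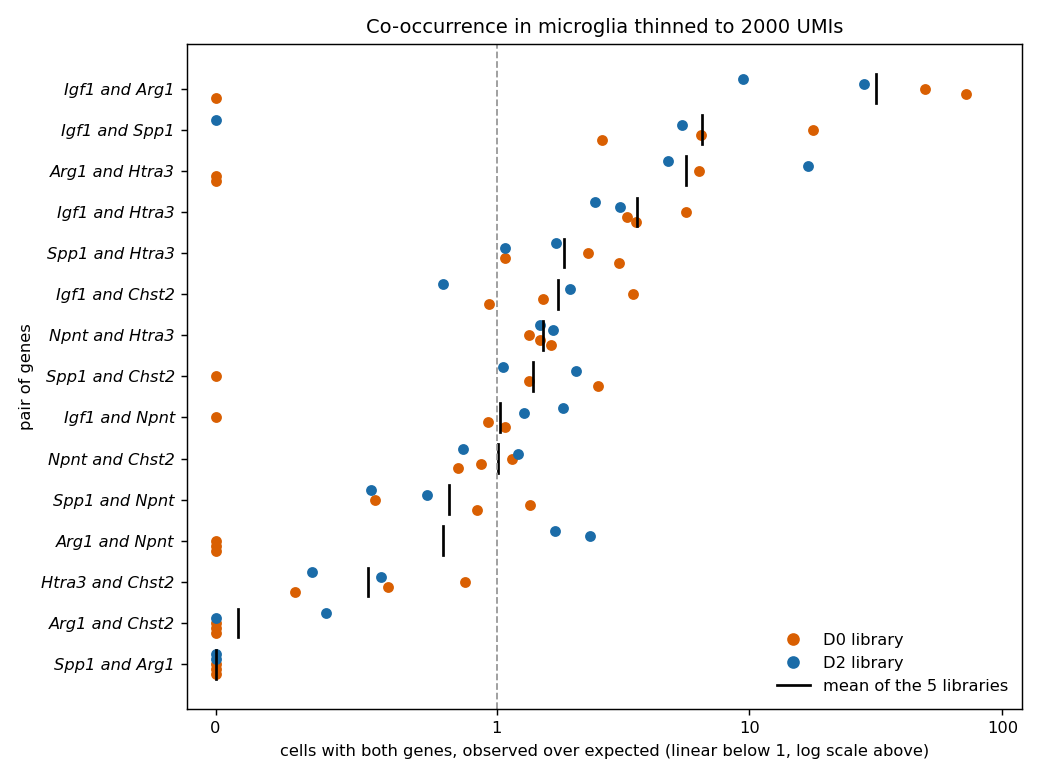
Ratio of observed to expected number of microglia with both genes of a pair, in cells thinned to 2000 UMIs, for each of the 5 D0 and D2 libraries (points) and their mean (line), on an axis linear below 1 and logarithmic above. Igf1 with Arg1 has the highest mean ratio (31.7, over libraries from 0 to 71.8), with 10 of its 15 cells in D2-2, where the ratio is 9.39. Npnt with Htra3 lies above 1 in every library (1.34 to 1.67) and Htra3 with Chst2 below 1 in every library (0.284 to 0.887).

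The genes whose level across cells was most like that of each gene were taken from 10042 genes found in at least 2% of the microglia, by the mean Pearson correlation within the 5 D0 and D2 libraries (13630 cells in all). Points share library and depth, and most correlations were weak. The choice of the genes favoured correlations with other genes of the same states. Arg1 was most like Igf1 (mean r 0.31), S100a6 (0.31) and S100a4 (0.23). Igf1 was most like S100a6 (0.27), Lgals3 (0.25) and the complement gene C3 (0.25), and Htra3 like Vim (0.29), Emp3 (0.29) and Fxyd5 (0.26). Spp1 was most like Lgals3, the lipase gene Lpl and Capg (0.17, 0.17 and 0.16). Chst2 was most like genes of lysosomes, Ctsd (0.21), Cd63 (0.19) and Ctsb (0.17). Npnt was most like Ifi27l2a, Psap and Fxyd5 (0.15 each).

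Mitotic microglia, with UMIs of at least 2 of 8 genes of dividing cells, were compared with the other microglia of the same library in D0 and D2. Mitotic cells were 7.83%, 22.5% and 22.9% of microglia in D0 and 15.0% and 21.6% in D2-1 and D2-2, against 0.229% to 0.366% in Ctrl. Of 11199 genes tested in edgeR with the library as a block, 21.6% were called higher and 22.2% lower in mitotic cells. The 6 genes were not chosen by this split itself, but as genes that lead states seen after depletion, when mitotic cells were also more frequent. Independence of the tests below from that choice is therefore not established. Htra3 measured 29.6, 34.5, 35.8, 15.4 and 41.5 CPM in mitotic cells of D0-1, D0-2, D0-3, D2-1 and D2-2, and 12.7, 14.5, 19.6, 10.6 and 13.1 CPM in the others. It was higher in mitotic cells in 5 of 5 libraries, by a log2 fold change of 1.12 ± 0.14 (SE, adjusted p = 9.9e-05, edgeR). Chst2 went the other way, with 13.3, 22.5, 8.40, 42.2 and 24.1 CPM in mitotic cells and 42.4, 59.3, 21.2, 54.8 and 88.3 CPM in the others. It was lower in 5 of 5 libraries, with a log2 fold change of -1.28 ± 0.18 (adjusted p = 2.3e-04, edgeR).

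Arg1 was higher in mitotic cells in 4 of 5 libraries (log2 fold change 2.11 ± 0.46, adjusted p = 0.00358, edgeR), with 46.2 against 4.67 CPM in D2-2, and 159 of its 209 mitotic UMIs in that library. Igf1 was higher in 3 of 5 libraries (0.68 ± 0.19, adjusted p = 0.0145), with 77.3 against 34.4 CPM in D2-2 and 8.93 against 9.93 in D2-1. Both calls were lost without D2-2 (1.33, adjusted p = 0.0773, for Arg1 and 0.45, adjusted p = 0.144, for Igf1), and both when mitotic cells needed 3 of the 8 genes (0.59, adjusted p = 0.255, for Arg1 and -0.12, adjusted p = 0.632, for Igf1). Without D0-2 the call on Igf1 was lost as well (0.58, adjusted p = 0.0829, edgeR). Spp1 (0.07 ± 0.25, adjusted p = 0.834) and Npnt (0.06 ± 0.10, adjusted p = 0.655) did not pass the threshold. In D2-3, Spp1 measured 292 CPM in mitotic cells and 300 CPM in the others.

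**Figure D4:**
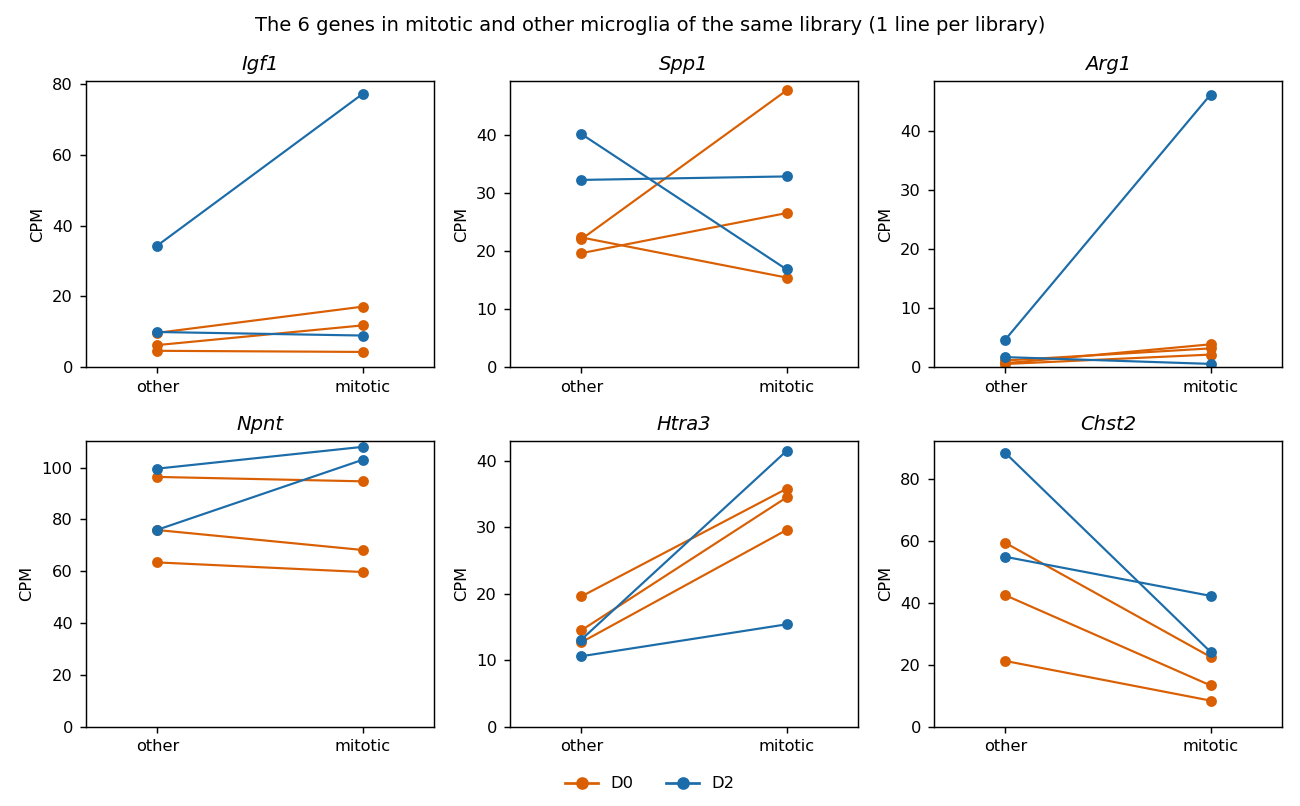
CPM of each gene in the other and the mitotic microglia of the same library, with 1 line for each of the 5 D0 and D2 libraries in the fits. Htra3 is higher and Chst2 lower in mitotic cells in every library, and the steep lines of Igf1 (34.4 to 77.3 CPM) and Arg1 (4.67 to 46.2 CPM) are D2-2.

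Genes of the pathways around the 6 genes were taken from 9 lists that hold 183 genes and none of the 6. Of these, 126 passed the filter on low counts, and 32 were called higher and 6 lower in D0 than in Ctrl (edgeR), beside the 12.5% and 7.55% of all genes above. In D2, 29 were called higher and 13 lower. With the replicate number as a block, which pairs D0 and Ctrl libraries, 11 list genes were called lower in D0, and with the 6 libraries of Cell Ranger 3.0.2 alone 19 were called higher and 0 lower in D0. The number of lower calls changed with the libraries in the fit. In D0, 1 was left without Ctrl-3 and 2 without Ctrl-2 or D0-2, while 5 to 7 were called without Ctrl-1, D0-1 or D0-3. In D2, 3 were left without Ctrl-3 and 4 without Ctrl-2, while 9 to 16 were called without Ctrl-1 or 1 of the D0 libraries. With a term for the Cell Ranger version 1 was lower in each comparison, in the 6 libraries 0 were lower in D2, and with D2-3 included the counts were 13 higher and 0 lower in D0 and 21 and 3 in D2. No list gene was called between D2 and D0. Itga4, Fam20c, Cd163, Mmp9, Mmp12, Chst11 and Hbegf fell outside the naming rule and are named after their values were seen. Cd44 and Ass1 met the rule in the mitotic comparison only, and their D0 and D2 calls are likewise named after their values were seen.

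Among 8 genes of the insulin-like growth factor axis tested, 2 were called higher in D0 and 2 higher and 1 lower in D2. Igfbp4, a binding protein of the ligand, rose from 24.2 ± 3.93 CPM in Ctrl (SD, n = 3) to 56.4 ± 1.46 in D0 (SD, n = 3), a log2 fold change of 1.43 ± 0.18 (adjusted p = 6.2e-04, edgeR), and was 1.06 ± 0.20 above Ctrl in D2 (adjusted p = 0.00556). Igf1r, the receptor of Igf1, was lower in D2, at 19.9 against 34.6 CPM (log2 fold change -0.68 ± 0.19, adjusted p = 0.0319, edgeR). Igfbp4 was also higher in mitotic cells in the D0 and D2 libraries, at 90.8 ± 21.8 against 41.8 ± 9.03 CPM (SD, n = 5). Of 11 partners of osteopontin and nephronectin, 3 were called higher and 2 lower in D0 and 3 higher and 3 lower in D2. The receptor gene Cd44, the integrin gene Itga4 and Fam20c, the kinase of secreted phosphoproteins, were the 3 higher genes in both, while the integrin genes Itgb3 (-0.58 ± 0.16, adjusted p = 0.0287, edgeR) and Itga9 (-0.61 ± 0.19, adjusted p = 0.0499) were lower in D0. In D2, Itgb3, the integrin gene Itgav and Tgm2, a crosslinking enzyme, were lower, Tgm2 falling from 45.7 ± 8.98 CPM in Ctrl (SD, n = 3) to 12.8 ± 5.37 (SD, n = 2). In D2-3, left out of that mean, Tgm2 measured 73.3 CPM, above every Ctrl library.

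Of 14 genes of arginine and polyamine metabolism, Ass1, which makes the precursor of arginine, and Oaz1, an inhibitor of polyamine synthesis, were called higher in both D0 and D2 and none was lower. Ass1 was also higher in mitotic cells (24.1 ± 8.91 against 9.09 ± 4.25 CPM, SD, n = 5) and led sub-cluster 12, where Arg1 lay. Of 15 genes of alternative activation, the macrophage programme for which Arg1 is usually named, 2 were called higher and 1 lower in D0 and 3 higher and 2 lower in D2, with a median log2 fold change of -0.30 in D0 and -0.16 in D2 beside -0.05 and -0.03 over all genes. Ccl24, a chemokine of this list, rose from 8.83 ± 0.802 CPM in Ctrl (SD, n = 3) to 34.6 ± 5.36 in D2 (SD, n = 2), while D2-3 measured 0.506 CPM, below every Ctrl library. Cd163, a scavenger receptor also used as a marker of border-associated macrophages, was lower in both.

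Of 16 secreted proteases and inhibitors, 1 was called higher in each comparison (Mmp9 in D0 and Mmp12 in D2), and the protease inhibitor gene Cst3 fell in both, with Ctrl at 62100 CPM, D0 at 42100 and D2 at 37900. Of 17 genes of sulfation, 3 were called higher and 1 lower in D0 and 1 higher and 3 lower in D2. The sulfotransferase genes Chst7 (63.5 to 35.4 CPM) and Chst11 were lower in D2, opposite in sign to Chst2, and Hs6st1 was lower in both. Of 18 other secreted growth factors, Mif and Pdgfa were higher in both comparisons and Hbegf lower in both, with Tgfb1 lower in D2 (-0.79 ± 0.24, adjusted p = 0.0479, edgeR). Of 10 genes of the extracellular matrix, 2 were called higher in each comparison and none lower.

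The list with the most calls was that of disease-associated microglia, the states for which Igf1 and Spp1 are usually named. Of its 17 genes, 14 were called higher in D0 and 12 in D2, beside 12.5% and 10.6% of all genes, and none was lower. The median log2 fold change of its tested genes was 1.49 in D0 and 1.81 in D2, beside -0.05 and -0.03 over all genes. The list was chosen with earlier results of these data known, and the study had reported its genes Lgals3 and Lyz2 as raised in D0. These calls are therefore not independent support. Lpl, at 12.1 ± 1.29 CPM in Ctrl (SD, n = 3), reached 59.9 ± 17.5 in D0 (SD, n = 3), with D2-1 and D2-2 at 66.8 and 66.7. The receptor gene Axl, the galectin gene Lgals3 and the fatty acid binding gene Fabp5 rose by log2 fold changes of 3.48, 3.31 and 2.75 in D0 and 3.62, 4.18 and 3.23 in D2. Within D0 and D2 libraries, 11 of these 17 genes were lower and 3 higher in mitotic cells, beside 22.2% and 21.6% of all genes, and Cd63 fell from 992 ± 250 to 434 ± 71.9 CPM (SD, n = 5).

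**Figure D5:**
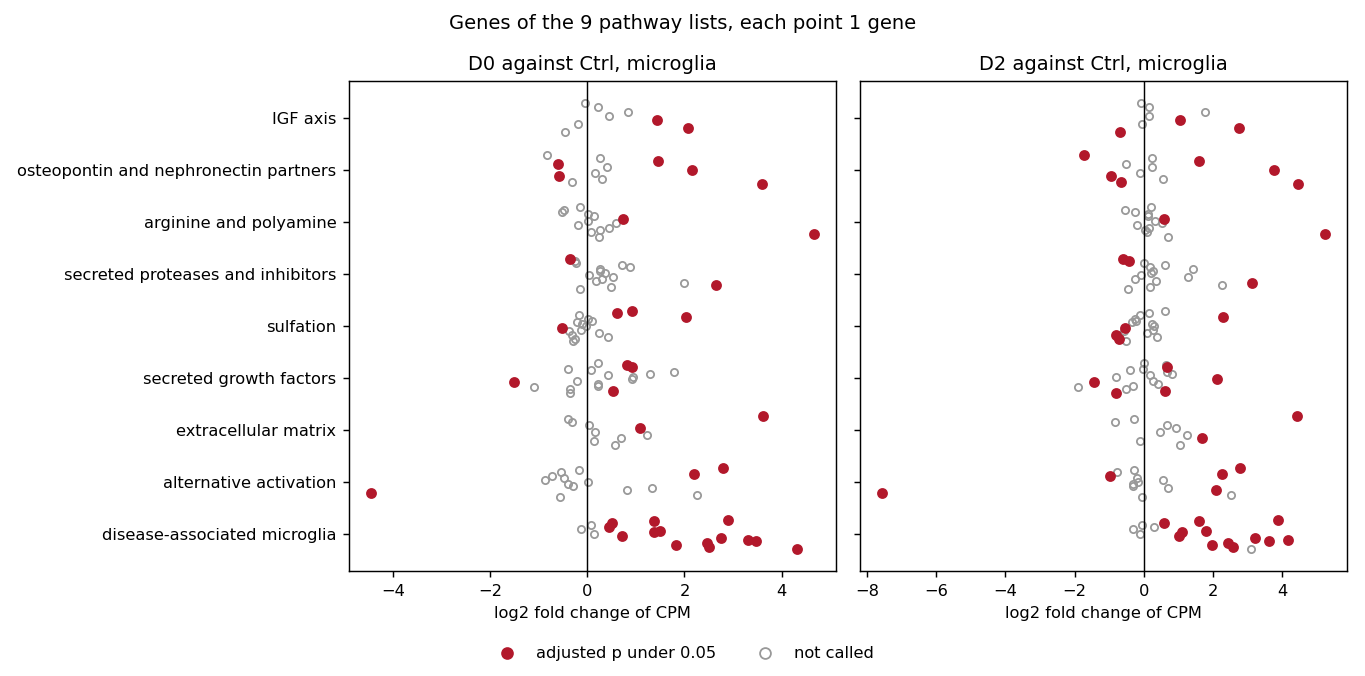
Log2 fold change of each tested gene of the 9 lists in D0 and D2 against Ctrl, with genes at an adjusted p under 0.05 (edgeR) in red. Most points of 8 lists lie near 0 with a few calls in either direction, while 14 of 17 genes of disease-associated microglia are called higher in D0 and 12 in D2.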

How the data were processed

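The authors deposited 1 table of UMI counts per library, made with Cell Ranger (3.0.2 or 3.1.0 per the file headers, 3.1.0 in the submitters' processing notes) on mm10, with no further normalization. From these counts, a barcode was kept if it had between 500 and 20000 UMIs, 200 genes or more, and a mitochondrial share of no more than 10%. Cells of the 8 libraries in the fits were clustered with scanpy 1.11.5 and leidenalg 0.10.2 without the 6 genes. Clusters were named from marker lists, and no doublet caller was run. Cells of D2-3 were not clustered. Each took the cluster, and if microglia the sub-cluster, most common among its 30 nearest cells of those 8 libraries. Counts of microglia were summed per library (20257894 to 61230741 UMIs in all cells of a library) and tested with edgeR 4.0.16 (filterByExpr, TMM, quasi-likelihood test, Benjamini-Hochberg adjustment, adjusted p under 0.05) in 1 fit of 8 libraries. DESeq2 1.42.0 was an alternative. The edgeR script was tested on simulated data. Mitotic and other microglia were compared with the library as a block. Replicates are pools or single brains, and intervals of shares cover counting error only.

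Deviations of libraries with the same number correlated at 0.40, 0.20 and 0.16 between Ctrl and D0. Ctrl and D0 libraries of unlike number ranged from -0.37 to 0.31, so that the ranges overlap. The values were 0.06 and 0.08 between Ctrl and D2 and -0.14 and 0.26 between D0 and D2. The main fit held no term for the replicate number, which was a block in an alternative fit only. Named list genes were up to 4 called genes per list and comparison (1 for mitotic cells) with the largest change among those reaching 20 CPM in either group, and the 3 genes most correlated with each of the 6. The 6 genes and the lists were chosen with earlier results of these data known. Promoter windows are from RefSeq (GRCm38.p6).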

Additional observations from a re-analysis of the deposited data

Results flagged for a closer look

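The library D2-3, which entered no fit, held 3 of the 6 genes above the highest Ctrl library in its microglia. Spp1 measured 293 CPM there against at most 6.14 in Ctrl, Htra3 measured 29.6 CPM against at most 6.24, and Arg1 measured 2.03 CPM (16 UMIs) against at most 0.111. In this library 84.4% of microglia were mitotic, and the 12 microglial markers summed to 12932 CPM, under the level of every other library. The part of these features in the levels was not tested.

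Npnt was lower in mitotic than in other microglia in all 3 D0 libraries and higher in both D2 libraries, and the mean difference in D2 exceeded that in D0 by 22.1 CPM. The test of this difference in edgeR gave a log2 value of 0.46 ± 0.16 with an adjusted p of 0.760, which did not pass the threshold.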

How the results depend on the processing

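The log2 changes of the 6 genes against Ctrl kept their sign in all 250 alternatives run, and 31 moved by more than the spread between replicates. The way the genes were chosen favoured this sign, and nothing is read from that count. Fits that left out a library of the group outside a comparison hardly moved its values. Arg1 gave no value without possible doublets, and its ratios of shares to Ctrl were then 7.13 in D0 and 20.8 in D2, against 12.5 and 44.1. In D0 vs Ctrl, main count 2491 genes called, the count was 469 with D2-3 included, 1335 with a term for the Cell Ranger version, 1119 without mitotic cells and 698 in the 6 libraries of Cell Ranger 3.0.2 (chosen, like the setting without the cluster led by Spp1, after seeing the data), and 1221 to 2575 with 1 library left out. Arg1 was 4.78 with DESeq2, 3.66 with the version term, 6.41 with no upper limit on UMIs, 3.82 without mitotic cells, 3.68 in the 6 libraries and 4.12 to 5.60 with 1 library left out. Igf1 was 3.71 with the version term, 3.73 in the 6 libraries and 0.88 over all myeloid cells. Spp1 was 3.96, 3.98, 2.34 without possible doublets and 2.59 to 3.56 with 1 library left out. Htra3 was 2.69 with no upper limit, 1.83 without mitotic cells and 2.55 without possible doublets.

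In D2 vs Ctrl, main count 2242, the count was 1300 with D2-3, 1140 with the version term, 1288 without mitotic cells, 1449 without possible doublets, 712 in the 6 libraries and 1071 to 3035 with 1 library left out. Spp1 was 5.45 with D2-3, 4.35 with the version term, 2.69 with no upper limit, 4.38 in the 6 libraries and 3.00 to 3.96 with 1 library left out. Chst2 was 2.94 with D2-3, 3.85 with the version term and 3.88 in the 6 libraries. Htra3 was 2.29 with D2-3 and 1.23 to 2.19 with 1 library left out. Igf1 was 2.53 over all myeloid cells and 2.85 to 5.19, and Arg1 4.69 to 8.38, with 1 library left out.

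In D2 vs D0, 26 genes were called by DESeq2 and 37 with no filter on low counts, where Igf1 (1.77) and Arg1 (2.74) passed. Npnt turned to -0.10 with D2-3 and -0.13 without possible doublets (-0.05 to 0.35 with 1 library left out), Htra3 to 0.15 with D2-3 (-0.90 to 0.05) and Spp1 to -0.34 with no upper limit. In mitotic against other cells, main count 4901, no replicate block left 3178 genes and Igf1 at 0.92 past the threshold no longer, and 1 library left out gave 3379 to 5791. With at least 3 mitotic genes Igf1 was -0.12, Arg1 0.59 and Npnt -0.05, and Spp1 was -2.4e-04 with DESeq2. With 1 library left out Igf1 was 0.45 to 0.89, Spp1 -0.28 to 0.43, Arg1 1.33 to 2.63 and Npnt -0.04 to 0.12.

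With the replicate number as a block, 2883 genes were called in D0, 2264 in D2 and 0 between D2 and D0, and beside the count of lower list genes no count moved by over 1.5 times. All 82 share ratios stayed above 1, which the way the genes were chosen also favoured. Of 45 co-occurrence ratios under other settings, 15 moved by more than the spread between libraries. The cause of these shifts was not tested. Few UMIs limit Arg1 in Ctrl, and 2 D2 libraries limit every D2 value.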
